A study of Rattus norvegicus with 6 samples.

Results

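The miR-143 and miR-145 cluster is a pair of microRNA (miRNA) hairpins whose products are known as the characteristic miRNAs of smooth muscle. Its members were taken by name, as every listed rat miRNA called miR-143 or miR-145 with either arm, which gave 4 of the 693 miRNAs in the count table: rno-miR-143-3p, rno-miR-143-5p, rno-miR-145-5p and rno-miR-145-3p. Small RNA was sequenced from lungs of Sprague-Dawley rats, all male and 7 to 8 weeks old. In the ischemia-reperfusion (IR) group the left lung hilum was clamped for 45 min and then released, and in the sham group the chest was opened in the same way without clamping. Each group had 3 libraries, treated here as separate animals, and p-values set the difference between groups against the spread between libraries. The labels call the sham group control, and the sources used here do not state the reperfusion time. Which lung the sequenced tissue came from is not stated either.

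A miRNA is cut from a folded hairpin with a 5p and a 3p arm, of which one usually accumulates and guides the silencing of mRNAs through its seed, bases 2 to 8. The miR-143 and miR-145 hairpins are made from one long primary transcript, the smooth muscle RNA Carmn, whose transcription is driven by serum response factor and its coactivator myocardin. In mice and in cultured cells both miRNAs favour the contractile state of smooth muscle, miR-145 by repressing the transcription factors KLF4 and KLF5 and miR-143 by repressing ELK1. In the lung, smooth muscle surrounds the pulmonary arteries and the airways, and fibroblasts and pericytes can also carry the cluster.

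All 4 members were matched by name to RefSeq mature sequences of the GRCr8 rat assembly. The sequences are shown because the arms of each hairpin differ in seed, so that the targets of an arm cannot be read from those of its partner. Capitals mark the seed.
rno-miR-143-3p: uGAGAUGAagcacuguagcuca
rno-miR-143-5p: gGUGCAGUgcugcaucucugg
rno-miR-145-5p: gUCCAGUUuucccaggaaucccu
rno-miR-145-3p: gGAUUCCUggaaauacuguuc
No 2 members shared a seed, and 0 other mature rat miRNAs in the RefSeq table carried any of these 4 seeds. The RefSeq table held 570 of the 630 listed rat names, so the seeds of the rest were not checked. In GRCr8 the Mir143 hairpin lies at chr18:57371349-57371453 and the Mir145 hairpin at chr18:57369983-57370070, both on the minus strand. Both lie within the annotated span of the noncoding gene Carmn, with 0 annotated genes wholly between them. The predicted fold joined the miR-143 arms by 16 base pairs and the miR-145 arms by 17. The sources used here do not name the build that the authors mapped to, so these positions come from the RefSeq annotation alone.

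The libraries held 3775663 to 11248166 reads on listed miRNAs, so 3 reads corresponded to 0.267 to 0.795 TPM, the share of a library scaled to a common total. One library stood apart: miR-21-5p took 24.2% of the reads of sham 3, against 9.66 to 13.5% in the other libraries. After the filter on low counts 418 miRNAs were tested, all 4 members among them. No listed name had the same counts as any member in every library.

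miR-143-3p had the highest level averaged over the 6 libraries and over the IR libraries, while over the sham libraries the mean of miR-21-5p was higher, at 174229 normalized CPM (reads scaled to a common library total) against 144869 for miR-143-3p. miR-143-3p had 893595, 499119 and 1848221 reads in IR libraries 1 to 3, against 1188817, 1780643 and 1132974 reads in sham libraries 1 to 3. It ranked first in all libraries except sham 3, where miR-21-5p was ahead. These reads made up 14.2, 13.2 and 16.4% of the IR libraries and 15.9, 16.6 and 11.0% of the sham libraries. The Wilson 95% interval of each share spanned at most 0.0342 percentage points to either side, which covers counting error only. The share averaged 14.6 ± 1.65% in IR and 14.5 ± 3.07% in sham (SD, n = 3 each), a difference far inside the spread between libraries (exact two-sided permutation p = 1.0, where 0.1 is the smallest p that 3 against 3 can give). With the miR-21-5p reads taken out of the total, the share averaged 16.4 ± 1.60% in IR and 17.3 ± 2.42% in sham (exact permutation p = 0.7).

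After scaling by the trimmed mean of M values (TMM), the level of miR-143-3p was 134883, 142288 and 155741 normalized CPM in IR libraries 1 to 3, against 149798, 157891 and 126917 CPM in sham libraries 1 to 3. The groups overlapped, with the highest and the lowest library both in sham. The level in IR was 0.996 times that in sham, with a 95% interval of 0.782 to 1.27 (log2 fold change -0.0056, SE 0.15, edgeR quasi-likelihood adjusted p = 0.993).

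miR-145-5p, the abundant arm of the miR-145 hairpin, ranked 26 by mean level, between miR-24-3p and let-7a-5p. It had 38061, 30805 and 57569 reads in IR libraries 1 to 3, against 62895, 52745 and 56149 reads in sham libraries 1 to 3. Its normalized level was 5745, 8782 and 4851 CPM in the IR libraries and 7925, 4677 and 6290 CPM in the sham libraries. The groups interleaved, with the highest value in IR 2 and the lowest in sham 2. The level in IR was 1.03 times that in sham, with a 95% interval of 0.675 to 1.56 (log2 fold change 0.04, SE 0.26, edgeR adjusted p = 0.962). The direction rested on single libraries: the log2 fold change was -0.26 without IR 2 and -0.12 without sham 2.

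The less abundant arms were read far more rarely but in every library. miR-143-5p had 664, 325 and 1308 reads in IR libraries 1 to 3, against 1134, 1257 and 1071 reads in sham libraries 1 to 3. Its normalized level was 100.2, 92.7 and 110.2 CPM in IR and 142.9, 111.5 and 120.0 CPM in sham. All 3 IR libraries lay below all 3 sham libraries, by a narrow margin between IR 3 and sham 2. The level in IR was 0.811 times that in sham, with a 95% interval of 0.615 to 1.07, and did not pass the test (log2 fold change -0.30, SE 0.17, edgeR adjusted p = 0.296).

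miR-145-3p had 2553, 1013 and 4336 reads in IR libraries 1 to 3, against 2851, 4970 and 3778 reads in sham libraries 1 to 3. Its normalized level was 385.4, 288.8 and 365.4 CPM in IR and 359.2, 440.7 and 423.2 CPM in sham. The groups overlapped through IR 1, which lay above sham 1. The level in IR was 0.850 times that in sham, with a 95% interval of 0.655 to 1.10 (log2 fold change -0.23, SE 0.16, edgeR adjusted p = 0.386).

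**Figure D1:**
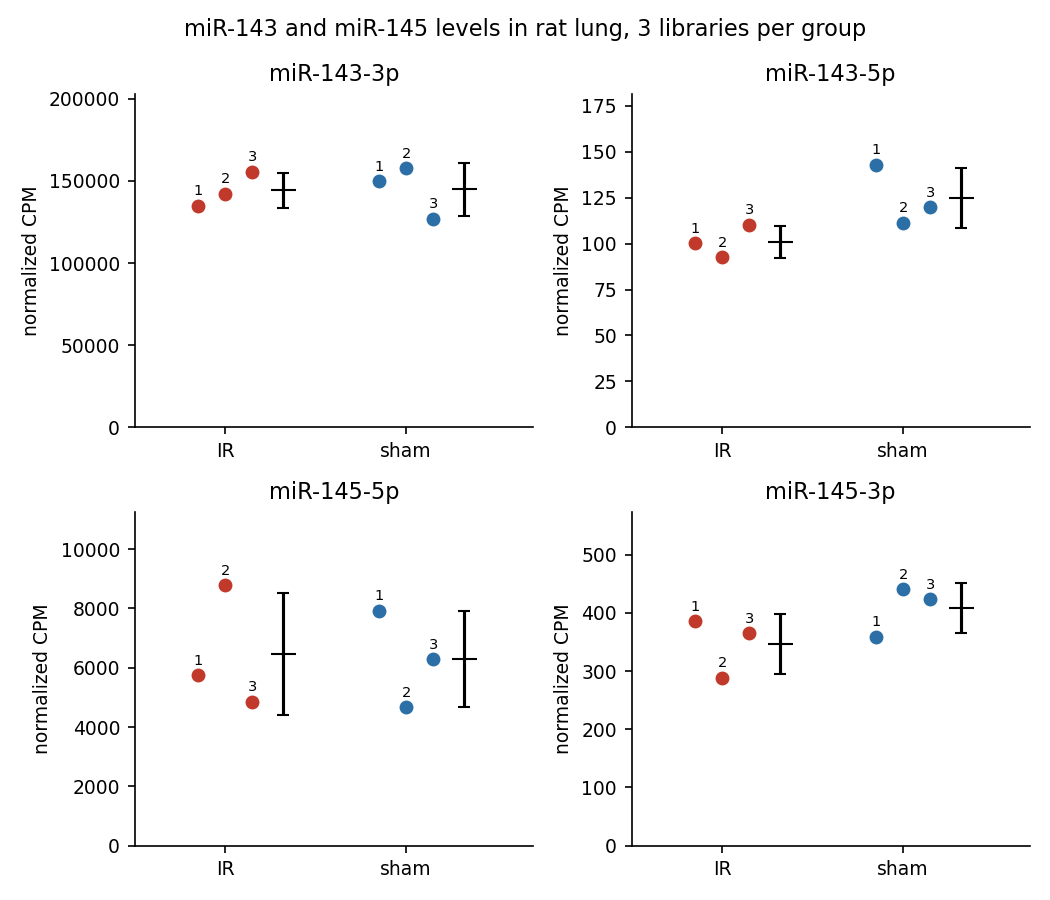
Normalized level (CPM) of the 4 members by library, with IR left of sham; points are libraries and bars give the mean and SD of 3. The groups overlap for every member except miR-143-5p, whose IR libraries lie between 92.7 and 110.2 CPM and whose sham libraries lie between 111.5 and 142.9 CPM.

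Of the 4 members, 0 passed the test at an adjusted p under 0.05, whereas 10.5% of the 418 tested miRNAs passed in either direction and 2.63% passed with lower levels in IR. By edgeR, 0 members also passed at an unadjusted p under 0.05, which 26.3% of the tested miRNAs did, and 0 passed by DESeq2. The libraries of the groups did not overlap for 1 of 4 members, against 34.0% of the tested miRNAs. The median log2 fold change was -0.12 over the members and -0.0088 over the tested miRNAs. In bulk lung, fewer cells of a type and less miRNA per cell cannot be told apart.

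**Figure D2:**
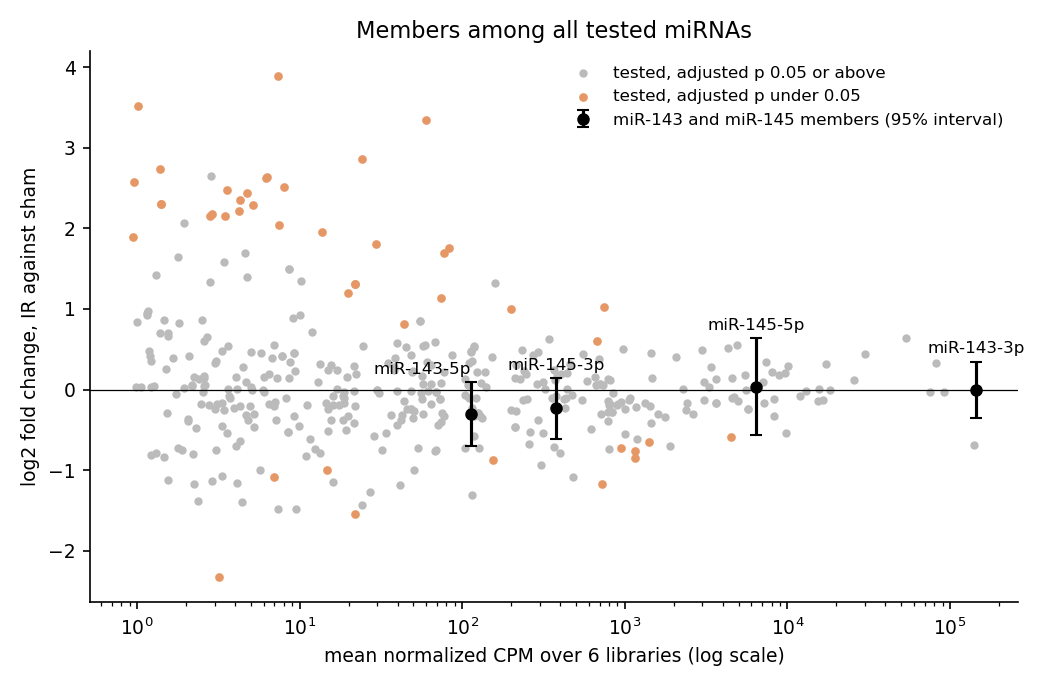
Log2 fold change of IR over sham for the 418 tested miRNAs against their mean level (CPM, log axis), with the 4 members in black with their 95% intervals and the miRNAs past the test in orange. The members lie between -0.30 and 0.04, and 0 of them is among the miRNAs called.

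Ratios between members within a library do not depend on the scaling. For each arm pair the reads of one member were divided by those of another, and 8 such ratios were tested together, including those to reference miRNAs given later. The miR-143-3p reads exceeded the miR-143-5p reads of the same hairpin 1346, 1536 and 1413 times in IR libraries 1 to 3, against 1048, 1417 and 1058 times in sham libraries 1 to 3. Sham 2 lay within the IR range and the other sham libraries below it. The ratio averaged 1432 ± 96.3 in IR and 1174 ± 210 in sham (SD, n = 3 each; exact two-sided permutation p = 0.3, adjusted p = 0.8 over the 8 ratios).

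For the miR-145 hairpin the 5p arm had more reads than the 3p arm in every library. The miR-145-5p reads exceeded the miR-145-3p reads 14.9, 30.4 and 13.3 times in IR libraries 1 to 3, against 22.1, 10.6 and 14.9 times in sham libraries 1 to 3. The ratio differed by up to 2.87 times between libraries, with the extremes in IR 2 and sham 2, and averaged 19.5 ± 9.46 in IR and 15.8 ± 5.79 in sham (SD, n = 3 each; exact permutation p = 0.6, adjusted p = 1.0). In both groups it fell from the shallowest to the deepest library, and the part of depth was not tested.

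Although both hairpins come from one transcript, the abundant arms did not keep a fixed proportion. The miR-143-3p reads exceeded the miR-145-5p reads 23.5, 16.2 and 32.1 times in IR libraries 1 to 3, against 18.9, 33.8 and 20.2 times in sham libraries 1 to 3. From the shallowest to the deepest library the ratio rose in both groups, from 16.2 to 32.1 in IR and from 18.9 to 33.8 in sham. The part of depth in this ratio was not tested. Each group held libraries from both ends of this range, and the ratio averaged 23.9 ± 7.96 in IR and 24.3 ± 8.23 in sham (exact permutation p = 0.9, adjusted p = 1.0). The less abundant arms were steadier relative to each other, with 0.260, 0.321 and 0.302 miR-143-5p reads per miR-145-3p read in IR and 0.398, 0.253 and 0.283 in sham (exact permutation p = 0.9, adjusted p = 1.0). Reads of different miRNAs are not molar amounts, since ligation differs between sequences, so the ratios are compared only across libraries.

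**Figure D3:**
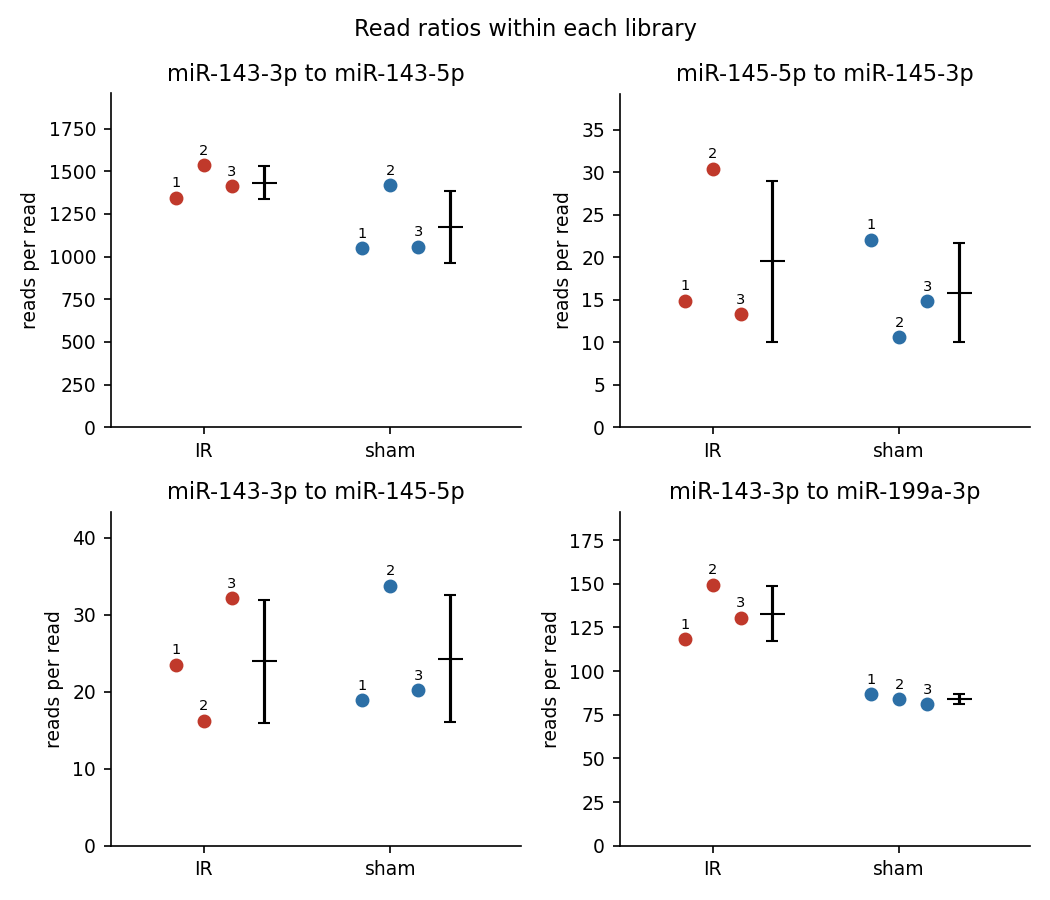
Reads of one miRNA per read of another within each library, for 3 pairs of members and for miR-143-3p to miR-199a-3p, with IR left of sham; points are libraries, numbered, and bars give the mean and SD of 3. The ratio of miR-143-3p to miR-145-5p spans 16.2 to 33.8 with both groups mixed. The ratio of miR-143-3p to miR-199a-3p is 118 to 149 in IR and 81.1 to 86.7 in sham, where miR-199a-3p itself is higher.

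Of the members, miR-145-5p varied most between libraries of a group. The SD of its log2 level within groups was 0.412, which was place 100 from the most variable among the 418 tested miRNAs and place 6 among the 65 with a mean of at least 1000 CPM. The same SD was 0.138 for miR-143-3p, 0.156 for miR-143-5p and 0.191 for miR-145-3p, against a median of 0.271 over the tested miRNAs. Within each group the level of miR-145-5p fell in the order of library depth: 8782, 5745 and 4851 CPM in the IR libraries from shallowest to deepest, and 7925, 6290 and 4677 CPM in the sham libraries. This order in both groups was shared by 14 of the 418 tested miRNAs (3.35%), while 27 (6.46%) rose with depth in both, and among the 65 abundant miRNAs the counts were 3 and 7. The other 3 members showed neither order. Sham 3 and sham 2 were close in depth, at 10302473 and 10718899 reads, so the order in sham rests partly on a small difference. The depth orders of the ratios to miR-145-3p and miR-143-3p given above use the same miR-145-5p reads. The part of depth in the level of miR-145-5p was not tested.

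**Figure D4:**
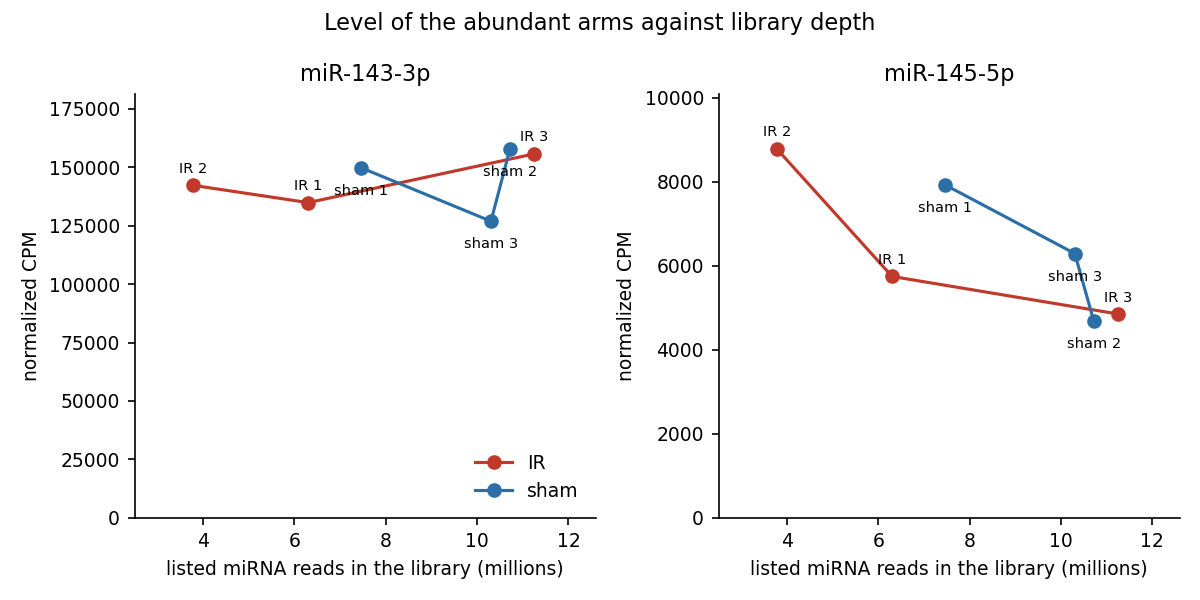
Normalized level (CPM) of miR-143-3p and miR-145-5p against the listed miRNA reads of each library, with lines joining the libraries of a group by depth. The miR-145-5p level falls with depth in both groups, to 4851 CPM in IR 3 and 4677 CPM in sham 2, and the miR-143-3p level does not. Sham 3 and sham 2 lie close in depth.

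The miRNAs whose reads kept the steadiest proportion to each abundant arm were ranked by the SD of the log2 ratio over the 6 libraries, among 417 others. For miR-143-3p they were miR-92a-1-5p (SD 0.0708), miR-7a-1-3p (0.125), miR-429 (0.135), let-7e-5p (0.142) and miR-30d-3p (0.142), against a median of 0.388. Of these, miR-92a-1-5p had a mean of 3.57 CPM in IR and 3.78 CPM in sham, so its place rests on few reads. The means of miR-7a-1-3p and miR-30d-3p also lay below 100 CPM. For miR-145-5p they were miR-222-3p (0.153), miR-342-3p (0.164), miR-183-5p (0.177), miR-3553 (0.177) and miR-103-3p (0.188), against a median of 0.538. The means of miR-183-5p and miR-3553 were nearly identical, 721.6 and 721.5 CPM in IR and 689.8 CPM for both in sham, so they are counted as uncertain and may share reads. The members themselves were not among the nearest: relative to miR-143-3p, miR-143-5p took place 84, miR-145-3p place 102 and miR-145-5p place 249 of 417. These values describe 6 libraries that differ in depth and carry no test.

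Of 24 other listed miRNAs linked to the state of smooth muscle cells, 22 were tested, of which 1 rose and 1 fell, beside the 10.5% called over all tested miRNAs. The median log2 fold change was 0.16, and its median size regardless of sign was 0.37, against 0.33 over all tested miRNAs. miR-1-3p, a striated muscle miRNA that also represses growth of smooth muscle, rose to 31.2 ± 3.52 CPM in IR, against 12.5 ± 1.68 CPM in sham (log2 fold change 1.31, edgeR adjusted p = 0.0138); miR-3571 had nearly the same reads. Both calls were lost without IR 3 (adjusted p = 0.070) and with a replicate block (0.069). miR-146a-5p, a damper of inflammatory signalling, fell to 830 ± 35.4 CPM in IR, against 1492 ± 362 CPM in sham (log2 fold change -0.85, adjusted p = 0.0247), a call lost in 5 of 18 alternatives: with a replicate block (0.10) and without IR 1 (0.064), IR 2 (0.060), IR 3 (0.138) or sham 3 (0.069). The most abundant of the list did not pass: the log2 fold change was -0.69 for miR-21-5p (adjusted p = 0.256), -0.04 for miR-26a-5p (0.912) and 0.44 for miR-10a-5p (0.112). Without sham 3, the library with the largest share of miR-21-5p, the miR-21-5p value was -0.18. The neighbours of miR-145-5p in level did not pass either, with 0.10 for miR-24-3p (0.714) and -0.24 for let-7a-5p (0.247).

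Fibroblasts and other mesenchymal cells carry miR-199a. Of 7 tested miRNAs of the mesenchymal list 1 fell, beside 2.63% of all tested miRNAs called lower in IR and 10.5% called in either direction. miR-199a-3p had 1095 ± 127 CPM in IR and 1724 ± 157 CPM in sham (SD, n = 3 each; log2 fold change -0.65, SE 0.14, edgeR adjusted p = 0.0229), a call lost in 8 of 18 alternatives: with total counts (adjusted p = 0.071), limma-trend (0.075) or a replicate block (0.130), and without IR 1 (0.061), IR 2 (0.062), IR 3 (0.078), sham 1 (0.050) or sham 2 (0.064). The log2 fold change was -0.42 for miR-199a-5p (adjusted p = 0.0968) and 0.13 for miR-140-3p (0.57), neither past the test. miR-140-3p was the most abundant of the list, and no ratio to it was taken. miR-199a-5p passed with total counts that left out miR-143-3p and miR-21-5p (adjusted p = 0.045). The summed level of the list was 7304 to 7981 CPM in IR and 8461 to 8599 CPM in sham, without overlap. Of the single tested miRNAs, 34.0% had no overlap either. Set against miR-199a-3p alone, the miR-143-3p reads were 118, 149 and 130 times as many in IR libraries 1 to 3. They were 86.7, 84.0 and 81.1 times as many in sham libraries 1 to 3. All IR ratios lay above all sham ratios, 1.58-fold on average (exact two-sided permutation p = 0.1, the smallest possible, adjusted p = 0.8 over the 8 ratios). The level in IR was 0.635 times that in sham for miR-199a-3p and 0.996 times for miR-143-3p. The ratio therefore repeats the lower miR-199a-3p level and is not a separate result for the cluster. The corresponding miR-145-5p ratio was 5.04, 9.23 and 4.06 in IR and 4.59, 2.49 and 4.02 in sham, with overlap (exact permutation p = 0.2, adjusted p = 0.8).

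Both abundant arms were also set against the endothelial miR-126a-3p. The miR-143-3p reads were 1.73, 1.52 and 1.58 times the miR-126a-3p reads in IR libraries 1 to 3, against 1.80, 1.80 and 1.20 times in sham libraries 1 to 3 (exact permutation p = 1.0, adjusted p = 1.0). The corresponding miR-145-5p ratio averaged 0.0721 ± 0.0222 in IR and 0.0694 ± 0.0225 in sham (SD, n = 3 each; exact permutation p = 1.0, adjusted p = 1.0). miR-126a-3p itself had 90129 ± 10630 CPM in IR and 92138 ± 11728 CPM in sham (log2 fold change -0.03, adjusted p = 0.932). miR-126a-5p had a log2 fold change of -0.01 (0.993) and miR-126b 0.08 (0.900), so 0 of 3 endothelial miRNAs passed.

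The marker miRNAs of other cell types differed in places between the groups, and their part in the values of the cluster was not tested. Over all 418 tested miRNAs, 10.5% passed and 51.2% had negative log2 fold changes. The libraries of the groups did not overlap for 34.0% of them. Several list members are arms of the same hairpin, so counts of direction within a list are not independent. Of 9 epithelial miRNAs 0 passed, but 8 had positive log2 fold changes and the summed level was 19075 to 19618 CPM in IR and 13192 to 16188 CPM in sham; the log2 fold change was 0.34 for miR-200a-3p (adjusted p = 0.132), 0.55 for miR-200b-3p (0.0647) and 0.28 for miR-200c-3p (0.296). miR-200b-3p passed in 9 of 18 alternatives, among them total counts (adjusted p = 0.039), DESeq2 (0.028), no filter (0.040) and the fit without sham 2 (0.043). The 9 include the main edgeR fit read at its unadjusted p (0.0079). Of 6 leukocyte miRNAs 1 fell, miR-150-5p of lymphocytes (log2 fold change -0.77, adjusted p = 0.0229; lost with a replicate block at 0.092, without IR 3 at 0.078 and without sham 3 at 0.059), and all 6 had negative log2 fold changes, with a summed level of 2263 to 2554 CPM in IR and 3198 to 4567 CPM in sham. The values were -0.61 for miR-142-5p (0.140) and -0.78 for miR-223-3p (0.294), neither past the test, although miR-142-5p passed without sham 1 (-0.84, 0.032). Of 4 erythroid miRNAs 0 passed, with -0.20 for miR-451-5p (0.764), -1.09 for miR-486 (0.166) and -1.31 for miR-144-3p (0.163), and the sums overlapped at 1493 to 2155 CPM in IR and 1234 to 4049 CPM in sham. Without sham 1, miR-486 (-1.46, adjusted p = 0.016) and miR-144-3p (-1.76, 0.012) passed; miR-144-3p also passed by DESeq2 (0.0496), and miR-486 was at -0.48 without sham 3. Of 6 ciliated airway miRNAs 0 passed, with 0.18 for miR-34c-5p (0.714), 0.08 for miR-34b-3p (0.915) and -0.11 for miR-34c-3p (0.869), and sums of 5804 to 6569 CPM in IR and 3888 to 8576 CPM in sham. Without sham 2, miR-34c-5p passed (0.68, adjusted p = 0.027). Of 6 striated muscle miRNAs, miR-1-3p and miR-3571 rose, but they had nearly the same reads and are not separate calls. The log2 fold change was 0.06 for miR-499-5p (0.900) and -0.01 for miR-133a-3p (0.993), and 2 of the 6 had negative values.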

How the data were processed

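Small RNA libraries from 3 IR and 3 sham lungs were analysed from the read counts per mature miRNA deposited by the authors, with TPM values that the authors deposited beside them. The submitters' processing notes name Bowtie. A genome build, a miRNA annotation, a counter and a rule for multiply mapped reads were not given in the sources used here. Near-identical miRNAs may therefore share reads. The 693 listed miRNAs comprised 630 with rat names and 63 predictions, and 0 columns lacked a sample. Fold changes made by the authors were not used.

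Counts were filtered with filterByExpr (minimum count 10, minimum total 15), scaled by TMM and tested with the edgeR 4.0.16 quasi-likelihood test in R 4.3.3. That test estimates the variability of each miRNA partly from the other tested miRNAs. P-values were adjusted by Benjamini and Hochberg over the 418 miRNAs tested, with a threshold of 0.05. Ratios used raw reads and exact two-sided permutation tests (20 divisions). Similarity of profiles used counts with 0.5 read added. Alternatives used other scalings and filters, DESeq2 1.42.0, limma 3.58.1 (on log2(TPM + 1) for one of them), a replicate block and leaving out each library. The edgeR likelihood ratio test and the main fit read at an unadjusted p were also counted as alternatives. Hairpins were folded with RNAfold 2.7.2. The fitting code was tested on simulated data.

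The members and lists were chosen with earlier results of these data known. Besides the members, the text names the 5 miRNAs most similar in profile to each abundant arm, the neighbours of these arms in level, and of each list the 3 most abundant tested miRNAs and any that passed. Depth was 3775663 to 11248166 reads.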

Additional observations from a re-analysis of the deposited data

How the results depend on the processing

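Under 18 alternatives, 0 of 4 members passed the test in each. The log2 fold change of miR-143-5p stayed between -0.39 and -0.21 (adjusted p 0.262 to 0.533) and that of miR-145-3p between -0.36 and -0.13 (0.319 to 0.655), both below 0 in all 18. Some values changed sign, in each case without passing the test, and the causes were not tested. These were not only values close to 0. The log2 fold change of miR-451-5p went from -0.20 to 0.38 without sham 3, and that of miR-222-3p from 0.24 to -0.070 without IR 2. With total counts the log2 fold change was 0.0095 for miR-143-3p, 0.0051 for miR-126a-3p, 0.027 for miR-126a-5p and 0.0027 for miR-26a-5p. With TMM factors computed without the members it was 0.029 for miR-143-3p, 0.0069 for miR-126a-3p, 0.030 for miR-126a-5p, 0.017 for miR-133a-3p and 0.0065 for miR-26a-5p. Without a filter it was 0.016 for miR-143-3p, 0.0010 for miR-126a-3p, 0.019 for miR-126a-5p and 0.014 for miR-133a-3p. With at least 10 reads in every library it was 0.042 for miR-143-3p, 0.021 for miR-126a-3p, 0.044 for miR-126a-5p, 0.033 for miR-133a-3p, 0.019 for miR-26a-5p and 0.013 for miR-7a-1-3p. With limma-trend it was 0.027 for miR-143-3p, 0.0074 for miR-126a-5p, 0.060 for miR-133a-3p and 0.00069 for miR-34c-3p, and with limma-voom 0.042 for miR-133a-3p. With total counts that left out miR-143-3p and miR-21-5p it was -0.073 for miR-145-5p, -0.0075 for miR-103-3p, -0.031 for miR-183-5p, -0.017 for miR-30d-3p, -0.014 for miR-34b-3p, -0.032 for miR-3553 and -0.022 for miR-499-5p.

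Leaving out each library in turn gave -0.10 to 0.079 for miR-143-3p, -0.26 to 0.24 for miR-145-5p, -0.086 to 0.25 for miR-103-3p, -0.11 to 0.066 for miR-126a-3p, -0.15 to 0.11 for miR-126a-5p, -0.22 to 0.38 for miR-126b, -0.16 to 0.27 for miR-133a-3p, -0.11 to 0.17 for miR-183-5p and miR-3553, -0.070 to 0.46 for miR-222-3p, -0.15 to 0.045 for miR-26a-5p and -0.28 to 0.036 for miR-342-3p. It gave -0.16 to 0.64 for miR-34b-3p, -0.36 to 0.38 for miR-34c-3p, -0.061 to 0.68 for miR-34c-5p, -0.49 to 0.38 for miR-451-5p, -0.031 to 0.21 for miR-499-5p, -0.10 to 0.040 for miR-7a-1-3p and -0.18 to 0.085 for miR-92a-1-5p. Over the 38 other named miRNAs, 684 values held 582 with the same direction and call, 20 that lost a call, 21 that gained one and 61 of the other sign. These counts include the main fit read at an unadjusted p under 0.05, which can only gain calls and cannot change a direction. By it miR-10a-5p, miR-142-5p, miR-144-3p, miR-199a-5p, miR-200a-3p, miR-200b-3p and miR-486 gained a call.

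The difference in log2 ratio was -0.27 to 0.24 for miR-143-3p to miR-145-5p when 1 library was left out and 0.10 with reads summed over a group. The ranges with 1 library left out were -0.11 to 0.53 for miR-145-5p to miR-145-3p, -0.20 to 0.13 for miR-143-5p to miR-145-3p, -0.16 to 0.13 for miR-143-3p to miR-126a-3p and -0.16 to 0.31 for miR-145-5p to miR-126a-3p, the last being -0.080 with summed reads. The difference in share of miR-143-3p was -1.66 to 1.14 percentage points with 1 library left out and -0.92 without the miR-21-5p reads.

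The number of miRNAs called, 44 of 418, was 26 with at least 10 reads in every library, 75 by DESeq2, 110 at an unadjusted p under 0.05, and 2 to 57 with 1 library left out. Libraries of the same replicate number were not positively correlated in their deviations from the group mean (-0.234, -0.387 and -0.183). With 3 libraries a group these values cannot settle whether the libraries were paired. With a replicate block edgeR called 0 miRNAs, with 84 at an unadjusted p under 0.05. The log2 fold changes of the members under the block were -0.0023, -0.30, 0.02 and -0.24 for miR-143-3p, miR-143-5p, miR-145-5p and miR-145-3p, and that of miR-133a-3p was 0.036.

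Of the 5 miRNAs most similar in profile to miR-145-5p, 5 were shared with the list from normalized log2(CPM + 1) and 5 with that limited to a mean of at least 100 CPM, against 2 and 2 of the 5 for miR-143-3p.

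With 3 libraries a group, the exact tests cannot reach p = 0.05, and the intervals of the members span changes that these data cannot separate from none. Levels in lung tissue are relative to all listed miRNAs.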
